A study of Mus musculus with 6 samples.

Results

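Of the 49671 genes in a table of read counts from adult mouse neural stem cells (NSCs), 33 are described here: 22 cadherins (*Cdh*) and 11 protocadherins that lie outside the *Pcdha*, *Pcdhb* and *Pcdhg* clusters (*Pcdh*). They were taken by symbol from the gene name table, and all 33 had a row. The samples were 6 neurosphere libraries, 3 labelled Tet3-Gfap cre and 3 labelled Tet3-Gfap control. Neurospheres are floating aggregates that subventricular zone (SVZ) cells form in medium with EGF and FGF2. Both groups carry *Tet3* alleles with loxP sites around an exon (Tet3loxp/loxp). The cre group also carries a Cre-recombinase transgene driven by a *Gfap* promoter cassette (Gfap-cre+/0), and the control group does not (Gfap-cre0/0). Cultures were started from mice aged 2 to 4 months, with the brains of 2 animals pooled in each. Recombination was thus set off in GFAP-expressing cells, and a library holds all the cells that grew. Whether the 3 libraries of a genotype came from separate cultures is not given in the sources used here. P-values therefore speak only to how much these samples varied, and that variation may be technical.

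Cadherins are calcium-dependent adhesion proteins that bind mainly to the same or a like cadherin on a neighbouring cell. Classical cadherins of type I and type II reach into the cell with a tail that holds p120-catenin and beta-catenin, and through alpha-catenin the actin cytoskeleton. The delta protocadherins lack this catenin-binding tail, adhere more weakly, and several of them recruit the WAVE complex, which drives actin branching. In the adult SVZ, N-cadherin (*Cdh2*) is known to hold stem cells in contact with ependymal cells, and its cleavage by metalloproteases goes with their release from the niche. Combinations of type II cadherins and delta protocadherins are known from the developing brain as labels of regions and of neuron groups.

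The libraries held 29660398 to 35405326 counts. *Tet3*, the targeted gene, had 61.3, 60.2 and 116 CPM (a gene's counts over the TMM-scaled library total, times 1e6) in the libraries labelled cre 1, 2 and 3, against 114, 137 and 60.3 CPM in those labelled control 1, 2 and 3. The libraries labelled cre 3 and control 3 thus went against their labels for *Tet3*, as they did for *Gfap*, which had 3.85, 3.49 and 0.280 CPM under the cre labels and 0.501, 0.328 and 6.62 CPM under the control labels. Gene-level counts cannot tell whether the floxed exon was kept. Groups below follow the labels, and values for the 4 libraries numbered 1 and 2 stand beside them. For the 13 tested members given no such value in their own paragraphs below, the log2 fold change in the 4 libraries ran from -0.07 to 0.37. Their adjusted p in the quasi-likelihood test ran from 0.461 to 0.991. Markers of neural stem or progenitor cells (8 genes, among them *Nes*, *Sox2* and *Fabp7*) summed to 7126 to 7821 CPM in cre and 7616 to 8738 CPM in control libraries. The sums of the astrocyte, oligodendrocyte lineage and neuron lists likewise overlapped between the groups. The sum of the 4 ependymal markers did not overlap, with 21.9, 20.8 and 23.5 CPM in cre and 15.1, 16.7 and 18.6 CPM in control libraries. Nearly all of it was *Foxj1*, the only marker of that list higher in every cre library, where 4.62% of all genes tested were. *Rarres2* and *Ccdc153* overlapped, and *Tmem212* was at 0 in every library. The library labelled cre 1 stood apart in reads of some markers of other cell types, described with *Cdh1*.

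Of the 33 genes, 21 passed a filter on low counts and could be tested, 18 of them with a mean of at least 1 CPM. By the labels, none of the 21 passed an adjusted p of 0.05 in edgeR's quasi-likelihood test, which called 0% of 16916 genes. At an unadjusted p under 0.05 stood 3 members, *Cdh13*, *Cdh19* and *Pcdh15*, where 5.00% of all genes did. With other tools on the same labels, DESeq2 called *Cdh13* higher and *Cdh19* lower in cre, where it called 0.414% of all genes, 0.231% higher and 0.183% lower. The exact test called *Cdh13* higher, where it called 0.236% of all genes higher and 0.402% in either direction, and limma-voom called no member and 0% of all genes. In the 4 libraries numbered 1 and 2, the quasi-likelihood test called *Cdh13* higher in cre, where 0.212% of 17003 genes were called higher and 0.459% in either direction, and 6 members had an unadjusted p under 0.05, where 11.2% of all genes did. Other tools on these 4 libraries also called *Cdh13* higher, DESeq2 with 1.52% of all genes higher and 2.91% in either direction, the exact test with 2.04% higher and 3.75% in either direction, and limma-voom with 0.229% higher and 0.435% in either direction. The exact test on the 4 libraries also called *Cdh19* lower, as it did 1.71% of all genes. The median log2 fold change of the 21 members, cre over control, was 0.08 by the labels and 0.11 in the 4 libraries, beside 0.00 for all genes tested in both. By the labels, 15 of the 21 lay within 0.2 of zero on the log2 scale. In bulk libraries, fewer cells that make a transcript and less of it per cell cannot be told apart.

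The cre and control libraries did not overlap for 3 of the 21 members, where 9.57% of all genes tested did not overlap. *Cdh13* and *Pcdh9* were higher in every cre library, a share of 9.52% where 4.62% of all genes tested did the same, and *Cdh19* was lower in every cre library, a share of 4.76% where 4.95% of all genes did. In the 4 libraries, 6 members lay higher in cre without overlap (28.6%, beside 19.9% of all genes) and 3 lower (14.3%, beside 21.0%), where 40.8% of all genes did not overlap in either direction.

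**Figure D1:**
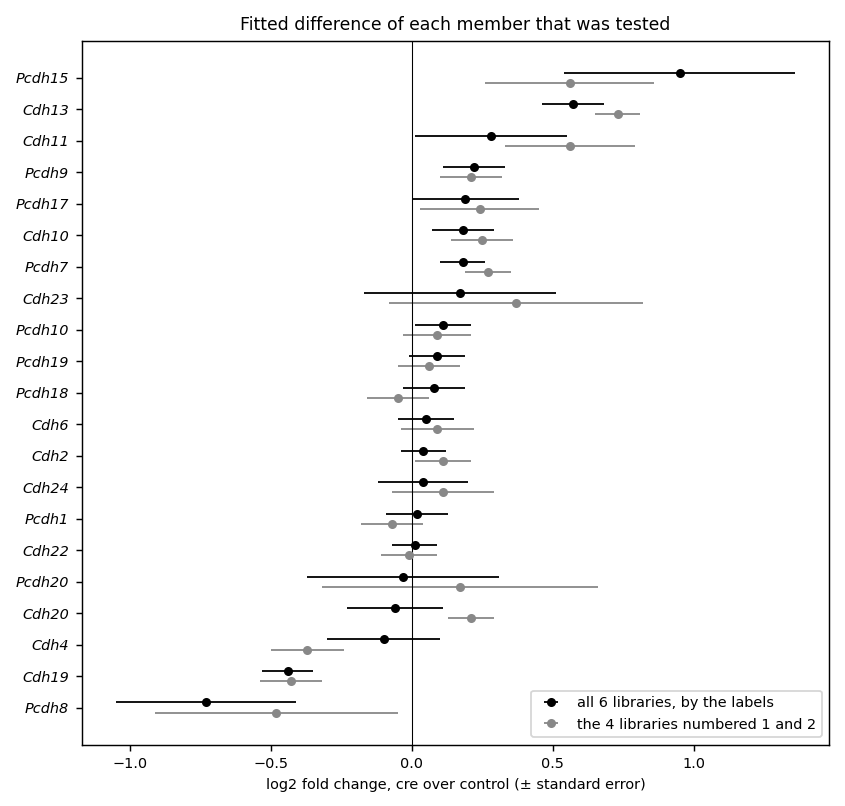
Fitted log2 fold change, cre over control, with its standard error (horizontal axis) for the 21 members tested (vertical axis), in black for all 6 libraries by the labels and in grey for the 4 libraries numbered 1 and 2. *Pcdh15* (0.95) and *Cdh13* (0.57) lie farthest to the right by the labels and *Pcdh8* (-0.73) and *Cdh19* (-0.44) farthest to the left, and *Cdh13* has the highest value in the 4 libraries (0.73).

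Per kilobase of exon, the members with the highest levels were the type II cadherin *Cdh20*, the type I cadherins *Cdh4* and *Cdh2*, and then *Cdh19* and *Cdh13*. *Cdh20* averaged 40.1 CPM per kilobase over the 6 libraries, *Cdh4* 33.2, *Cdh2* 25.8, *Cdh19* 16.1 and *Cdh13* 16. *Cdh20*, *Cdh4* and *Cdh2* together made up 49.5% of the summed level per kilobase of all members. The order of the leading genes was not the same in every library, since *Cdh4* took 11.7% to 23.0% of that sum and *Cdh20* 17.6% to 26.1%. The protocadherins with the highest levels were *Pcdh10*, at 11.8 CPM per kilobase, and *Pcdh7*, at 6.96. Across the 6 libraries the coefficient of variation of the 18 members with at least 1 CPM had a median of 11.8%, beside 9.39% for the 14443 genes tested at that level, and ran from 5.67% for *Cdh6* to 45.4% for *Pcdh15*.

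**Figure D2:**
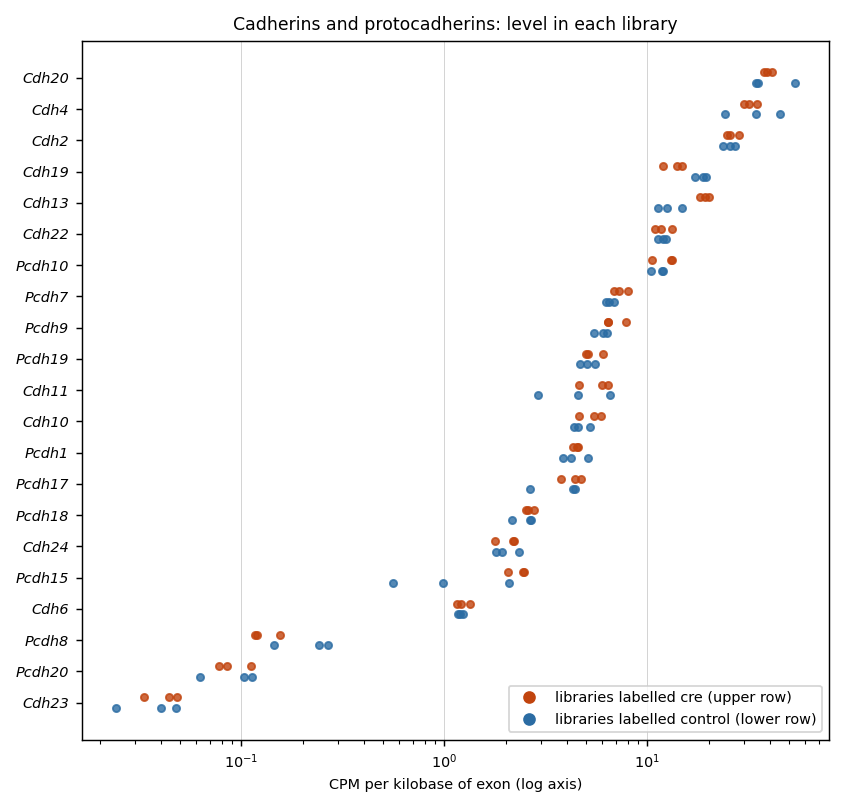
Level of each of the 21 tested members in CPM per kilobase of exon (horizontal log axis), with 1 point per library and the cre libraries in the upper row of each gene. *Cdh20*, *Cdh4* and *Cdh2* stand at the top with means of 25.8 to 40.1, and *Cdh23* stands lowest. The *Pcdh15* points of control 1 and control 3 fall to the left of the others.

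The sequence before the start site differed between members in CpG content, which is given here because TET proteins act on methylated CpG. No methylation was measured in these libraries. RefSeq promoter windows were at hand for 22 of the members. Among the tested members, none was at hand for *Cdh2*, *Cdh4*, *Cdh11*, *Cdh13*, *Cdh19* and *Pcdh1*, so the counts below leave these out. CG dinucleotides were counted in the 250 bases before each start, in the window with the most where a gene had several. Capitals mark each CG dinucleotide in the windows of *Pcdh10* (high level, many CpGs), *Cdh20* (the highest level per kilobase) and *Cdh26* (not past the filter, no CpG).
*Pcdh10*, GRCm38.p6 chr3:45378148-45378397, plus strand: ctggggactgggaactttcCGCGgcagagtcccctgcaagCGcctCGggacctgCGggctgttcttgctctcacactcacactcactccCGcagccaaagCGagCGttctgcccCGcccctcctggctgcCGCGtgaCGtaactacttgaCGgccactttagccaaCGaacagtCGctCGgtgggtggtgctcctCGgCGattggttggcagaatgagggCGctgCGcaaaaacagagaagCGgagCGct
*Cdh20*, GRCm38.p6 chr1:104768270-104768519, plus strand: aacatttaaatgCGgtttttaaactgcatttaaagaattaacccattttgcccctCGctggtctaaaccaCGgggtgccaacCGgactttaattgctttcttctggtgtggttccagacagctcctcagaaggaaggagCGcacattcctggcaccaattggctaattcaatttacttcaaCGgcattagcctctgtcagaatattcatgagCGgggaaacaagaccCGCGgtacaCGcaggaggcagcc
*Cdh26*, GRCm38.p6 chr2:178430265-178430514, plus strand: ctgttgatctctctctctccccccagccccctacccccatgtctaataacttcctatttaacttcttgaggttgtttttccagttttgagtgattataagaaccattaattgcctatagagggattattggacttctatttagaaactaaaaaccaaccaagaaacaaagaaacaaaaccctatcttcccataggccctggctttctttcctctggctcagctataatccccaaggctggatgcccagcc

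The window of *Pcdh10* held 22 CG dinucleotides, that of *Cdh20* 10 and that of *Cdh26* 0. Of the 15 tested members with a window, 9 held at least 10 (median 11), against 2 of 7 that did not pass the filter (28.6%, median 7). Over all genes tested the share was 78.2% of 10869 (median 17), and over the genes that were not tested 15.2% of 8911 (median 3). High CpG content and level did not always go together among the members, as *Cdh8* held 20 CG dinucleotides at a mean of 0.0481 CPM and *Cdh10* held 2 at a mean of 50.3 CPM. A RefSeq start need not be the start used in these cells, and for 4 members it lay far downstream of the first annotated start, by 1382 bases for *Cdh10*, 487441 for *Cdh18*, 662187 for *Cdh12* and 722525 for *Pcdh15*.

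Of the 5 type I cadherins, 2 were detected above the filter, and neither was called by any tool in any set of libraries. *Cdh2* (N-cadherin, chromosome 18) had 199, 229 and 205 CPM in cre 1, 2 and 3, against 190, 206 and 219 CPM in control 1, 2 and 3. The groups overlapped throughout, at a log2 fold change of 0.04 (SE, the standard error, 0.08, adjusted p = 1.00 by edgeR's quasi-likelihood method, which all tests below use unless named). *Cdh4* (R-cadherin, chromosome 2, 179442431 to 179899373 in GRCm38) had 216, 231 and 251 CPM in cre, against 328, 249 and 174 CPM in control. The 3 cre libraries lay close together, between the high control 1 and the low control 3. The log2 fold change came to -0.10 by the labels (SE 0.20, adjusted p = 1.00) and -0.37 in the 4 libraries (SE 0.13, adjusted p = 0.357). Summed over the type I members, the level was 444 ± 24.5 CPM in cre and 455 ± 62.3 CPM in control libraries (SD, n = 3 each).

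Of the 12 type II cadherins among the members, 7 passed the filter. The one that differed most by the labels was *Cdh19*, which is known from the neural crest and Schwann cell lineage. *Cdh19* (chromosome 1, 110888326 to 110977584) had 63.6, 51.1 and 59.9 CPM in cre 1, 2 and 3, against 80.7, 73.8 and 83.5 CPM in control 1, 2 and 3. Every cre library was below every control library, and the libraries labelled cre 3 and control 3 lay with their labels. Means were 58.2 ± 6.43 CPM in cre and 79.3 ± 4.98 CPM in control (SD, n = 3 each), a log2 fold change of -0.44 (SE 0.09, unadjusted p = 0.0018 and adjusted p = 0.685 by edgeR quasi-likelihood). DESeq2 called it lower by the labels (adjusted p = 0.0252). In the 4 libraries the log2 fold change was -0.43 (SE 0.11, adjusted p = 0.206, and 0.0491 with the exact test).

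*Cdh20* (chromosome 1, 104768529 to 104995481), which lies on the same chromosome as *Cdh7* and *Cdh19*, had 156, 165 and 151 CPM in cre, against 138, 140 and 215 CPM in control. The high value of control 3 set the group means almost level, and the direction depended on it, with a log2 fold change of -0.06 by the labels (SE 0.17, adjusted p = 1.00) and 0.21 in the 4 libraries (SE 0.08, adjusted p = 0.345). *Cdh11* (OB-cadherin, chromosome 8, a mesenchymal and neural cadherin) had 40.9, 57.0 and 53.1 CPM in cre, against 25.8, 40.6 and 58.5 CPM in control. Control 1 was the lowest and control 3 the highest of the 6. The log2 fold change came to 0.28 by the labels (SE 0.27, adjusted p = 1.00) and 0.56 in the 4 libraries (SE 0.23, adjusted p = 0.434), and it was 0.03 without control 1. The mesenchymal markers summed to 16.6, 0.237 and 0.311 CPM in cre and to 0.627, 0.774 and 0.916 CPM in control libraries, and their part in the counts of *Cdh11* was not tested.

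The other 4 tested type II cadherins lay within 0.2 of zero on the log2 scale. *Cdh10* (chromosome 15) had 54.8, 59.2 and 46.1 CPM in cre, against 52.5, 43.7 and 45.6 CPM in control (log2 fold change 0.18, SE 0.11, adjusted p = 1.00). *Cdh22* (chromosome 2), known from pituitary and brain, had 48.7, 40.5 and 43.3 CPM in cre, against 44.2, 45.7 and 41.9 CPM in control (log2 fold change 0.01, SE 0.08, adjusted p = 1.00). In both genes the groups overlapped, as they did in the less abundant *Cdh6* (K-cadherin) and *Cdh24*. *Cdh6* had 10.9, 12.1 and 10.4 CPM in cre, against 11.1, 10.5 and 10.8 CPM in control, the least variable member of all. *Cdh24* had 6.22, 7.66 and 7.62 CPM in cre, against 6.24, 6.67 and 8.10 CPM in control. Their log2 fold changes were 0.05 for *Cdh6* (SE 0.10, adjusted p = 1.00) and 0.04 for *Cdh24* (SE 0.16, adjusted p = 1.00). Summed over type II members, the level was 382 ± 11 CPM in cre and 394 ± 59.9 CPM in control libraries (SD, n = 3 each).

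*Cdh13* was higher in every cre library and was the only member called in the 4 libraries by the quasi-likelihood test. It encodes T-cadherin, which is held in the membrane by a GPI anchor and lacks the transmembrane part and the catenin-binding tail of the classical cadherins, and is known as a receptor for adiponectin and as a repulsive cue for axons. *Cdh13* (ENSMUSG00000031841, chromosome 8, 118283733 to 119324921) had 215, 226 and 203 CPM in cre 1, 2 and 3, against 126, 140 and 167 CPM in control 1, 2 and 3. Every cre library was above every control library. The library labelled cre 3 lay with the other cre libraries, and control 3 lay between control 2 and cre 3. The gene thus did not divide the libraries the way *Tet3* did. Means were 215 ± 11.5 CPM in cre and 145 ± 20.7 CPM in control (SD, n = 3 each), a log2 fold change of 0.57 (SE 0.11, unadjusted p = 0.000814 and adjusted p = 0.522 by edgeR quasi-likelihood). By the same labels the adjusted p was 0.00119 with DESeq2 and 0.00701 with the exact test. In the 4 libraries the log2 fold change was 0.73 (SE 0.08, adjusted p = 0.0288 by quasi-likelihood). Leaving out single libraries gave log2 fold changes of 0.49 (without control 1) to 0.69 (without control 3), and of these fits only the one without control 3 passed the threshold (adjusted p = 0.0371, with 0.0233% of all genes called higher and 0.105% in either direction). The ependymal marker sum was also higher in every cre library (20.8 to 23.5 CPM in cre, 15.1 to 18.6 CPM in control). It was nearly all *Foxj1*, and no other marker of that list separated the groups. *Cdh13* and *Pcdh9* were likewise higher in every cre library, and *Cdh19* was lower in each. The part of ependymal cells in these values was not tested. Markers of endothelial cells (5 genes), in which T-cadherin is also known, summed to 6.22, 9.87 and 4.07 CPM in cre and to 1.41, 6.46 and 11.7 CPM in control libraries. Most of that sum was *Flt1* (2.61 to 8.07 CPM in cre, 0.282 to 10 CPM in control) and *Kdr* (1.22 to 1.70 CPM in cre, 1.00 to 1.51 CPM in control), while *Pecam1*, *Tie1* and *Cldn5* stayed under 0.5 CPM, with *Cldn5* at 0 in every library but cre 1. The part of endothelial cells in the counts of *Cdh13* was not tested.

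**Figure D3:**
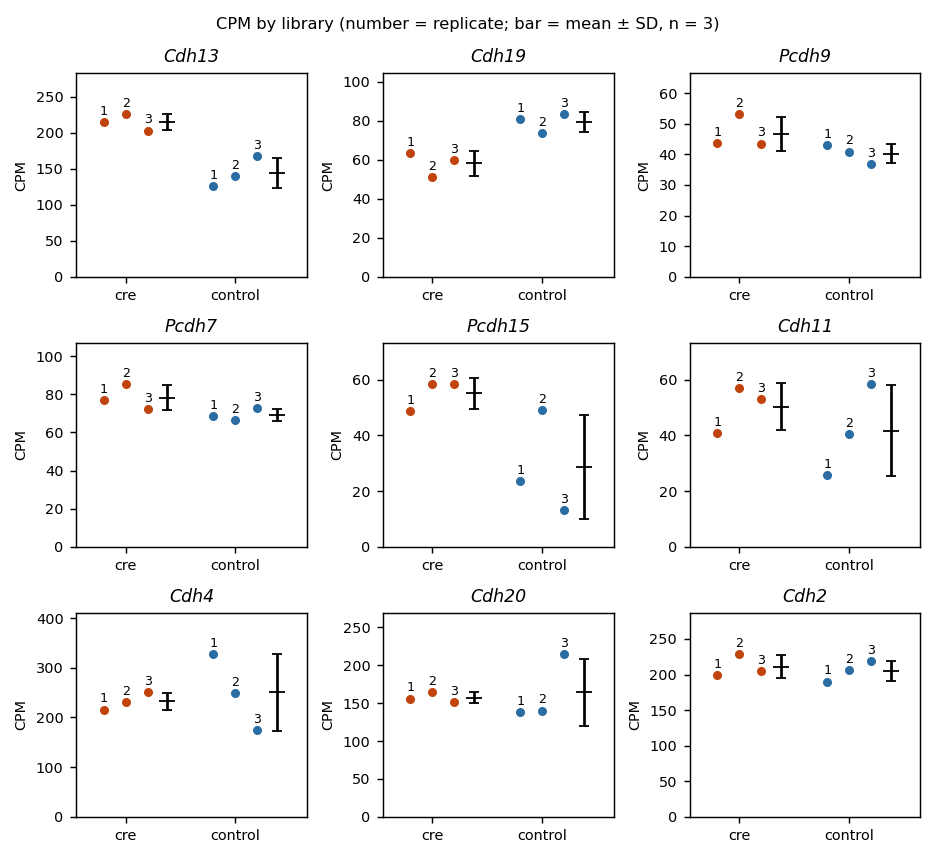
CPM of 9 members by library (vertical axes from 0), with the cre libraries left of the control libraries, replicate numbers above the points and the mean ± SD (n = 3) beside each group. *Cdh13* (203 to 226 CPM in cre, 126 to 167 CPM in control), *Cdh19* and *Pcdh9* show no overlap between the groups, while the control libraries of *Pcdh15*, *Cdh11*, *Cdh4* and *Cdh20* spread more widely than the cre libraries.

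*Cdh23*, which joins with PCDH15 in the tip links of inner ear hair cells, was near the lower limit of the filter, with 0.820, 0.746 and 0.560 CPM in cre and 0.407, 0.804 and 0.680 CPM in control (log2 fold change 0.17, SE 0.34, adjusted p = 1.00). Its partner *Pcdh15* (chromosome 10, 73099342 to 74649737) was more abundant and was the most variable member. *Pcdh15* had 48.7, 58.5 and 58.3 CPM in cre 1, 2 and 3, against 23.5, 49.2 and 13.2 CPM in control 1, 2 and 3. Control 2 lay with the cre libraries, and control 1 and control 3 lay below all others. The means were 55.1 ± 5.62 CPM in cre and 28.6 ± 18.5 CPM in control (SD, n = 3 each), with a log2 fold change of 0.95 (SE 0.41, unadjusted p = 0.0494 and adjusted p = 0.996 by edgeR quasi-likelihood) and of 0.56 in the 4 libraries (SE 0.30, adjusted p = 0.580). Without control 2 it was 1.59 and without control 3 it was 0.60. *Pcdh20*, the other protocadherin past the filter that is not grouped here with the delta protocadherins, had 0.424, 0.610 and 0.466 CPM in cre. It had 0.345, 0.566 and 0.621 CPM in control (log2 fold change -0.03, SE 0.34, adjusted p = 1.00).

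All 8 delta protocadherins among the members passed the filter, 7 of them with at least 1 CPM, and none was called by any tool. *Pcdh9* (chromosome 14, 93013410 to 93890679), a delta protocadherin of brain circuits, had 43.6, 53.2 and 43.5 CPM in cre, against 42.9, 40.9 and 36.9 CPM in control. The groups did not overlap, but cre 3 and control 1 differed by less than 1 CPM, and the log2 fold change was 0.22 (SE 0.11, adjusted p = 1.00). *Pcdh7* (BH-protocadherin, chromosome 5) had 77.1, 85.5 and 72.4 CPM in cre, against 68.8, 66.6 and 72.7 CPM in control. Only cre 3 and control 3 overlapped, and under other scalings of the library totals the groups did not overlap. The log2 fold change was 0.18 by the labels (SE 0.08, adjusted p = 1.00) and 0.27 in the 4 libraries (SE 0.08, adjusted p = 0.277). Of the exon bases of *Pcdh7*, 21.1% also lie in the antisense gene *4932441J04Rik*, and the strand setting of the counting is not given in the sources used here, so reads of the 2 genes may not have been told apart.

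The most abundant protocadherin, *Pcdh10* (OL-protocadherin, chromosome 3, 45378398 to 45435623), had 168, 209 and 208 CPM in cre, against 166, 189 and 187 CPM in control, overlapping in cre 1 (log2 fold change 0.11, SE 0.10, adjusted p = 1.00). *Pcdh17* (chromosome 14), known from corticobasal ganglia circuits, had 48.9, 57.3 and 61.1 CPM in cre, against 34.3, 55.7 and 57.0 CPM in control, where control 1 alone was low (log2 fold change 0.19, SE 0.19, adjusted p = 1.00). *Pcdh19* (X chromosome), mutated in a human epilepsy, had 52.0, 63.5 and 53.5 CPM in cre, against 58.0, 52.7 and 48.7 CPM in control (log2 fold change 0.09, SE 0.10, adjusted p = 1.00). None of these separated the groups. *Pcdh1* (chromosome 18) had 39.9, 37.7 and 39.4 CPM in cre, against 36.9, 44.7 and 33.8 CPM in control (log2 fold change 0.02, SE 0.11, adjusted p = 1.00). *Pcdh18* (chromosome 3) had 13.9, 13.6 and 14.9 CPM in cre, against 14.2, 14.4 and 11.6 CPM in control (log2 fold change 0.08, SE 0.11, adjusted p = 1.00). In *Pcdh1* the control libraries lay on either side of the cre libraries, and in *Pcdh18* control 3 was the lowest and cre 3 the highest.

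*Pcdh8*, whose rat counterpart arcadlin is induced by neuronal activity and takes N-cadherin into the cell, was the scarcest delta protocadherin. It had 25, 16 and 17 counts in cre (0.707, 0.543 and 0.528 CPM), against 21, 37 and 41 counts in control (0.658, 1.10 and 1.21 CPM). Cre 1 and control 1 overlapped, and the log2 fold change was -0.73 by the labels (SE 0.32, adjusted p = 1.00) and -0.48 in the 4 libraries (SE 0.43, adjusted p = 0.785). Of its exon bases, 9.61% also lie in the antisense gene *Gm9748*. Summed over the delta protocadherins, the level was 486 ± 39.0 CPM in cre and 445 ± 21.9 CPM in control libraries (SD, n = 3 each). The sums overlapped, with 444, 521 and 494 CPM in cre and 422, 465 and 449 CPM in control. By the labels 7 of the 8 had a log2 fold change above zero, 1 of which (*Pcdh9*) went with groups that did not overlap. Their median was 0.10, beside 0.00 for all genes tested. In the 4 libraries *Pcdh1* and *Pcdh18* turned below zero.

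The 12 members that did not pass the filter were *Cdh1*, *Cdh3*, *Cdh7*, *Cdh8*, *Cdh9*, *Cdh12*, *Cdh15*, *Cdh16*, *Cdh17*, *Cdh18*, *Cdh26* and *Pcdh12*. *Cdh12* and the kidney cadherin *Cdh16* had 0 counts in all libraries, which allows a level of up to 0.0153 CPM over the 196344287 counts of the series (3 counts, counting error only). Of the rest, 4 reached 10 counts in any library. *Cdh18*, a type II cadherin of neurons, had 1, 12 and 4 counts in cre, against 0, 0 and 4 in control. *Cdh1* (E-cadherin, the cadherin of epithelia) had 37 counts in cre 1, against 1 and 0 in the other cre libraries and 1, 4 and 1 in control. *Cdh3* (P-cadherin) had 11 counts in cre 1 and 0 in every other library. *Pcdh12*, an endothelial and trophoblast protocadherin, had 17 counts in cre 1, 1 and 2 in the other cre libraries, and 2, 1 and 1 in control.

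*Cdh1*, *Cdh3* and *Pcdh12* thus shared 1 library, and that library also held markers of cells other than neural progenitors. All 5 mesenchymal or pericyte markers (*Col1a1*, *Col1a2*, *Dcn*, *Pdgfrb* and *Lum*) were highest in cre 1, with a sum of 16.6 CPM there and of 0.237 to 0.916 CPM in the other 5 libraries. Microglia markers summed to 3.03 CPM in cre 1 (3 of 5 highest there, *Cx3cr1* and *Aif1* at 0) and to 0 to 0.119 CPM elsewhere. All 4 epithelial markers were highest in cre 1, though their sum was only 0.679 CPM, against 0 to 0.187 CPM elsewhere. *Krt8* and *Krt18* had only 1 count each there and *Cldn4* 10, with 0 elsewhere. *Epcam* had 12 counts there, 5 and 6 in cre 2 and 3, and 0, 6 and 2 in control. Of the endothelial markers, 3 of 5 were highest in cre 1, but their sum there was within the range of the other libraries. The part of these cells in the counts of *Cdh1*, *Cdh3* and *Pcdh12* was not tested. *Cdh13* had 215, 226 and 203 CPM in cre 1, 2 and 3. Its log2 fold change was 0.57 with all 6 libraries and 0.57 without cre 1, and the quasi-likelihood test called it in neither fit. The part of these cells in the counts of *Cdh13* was not tested.

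**Figure D4:**
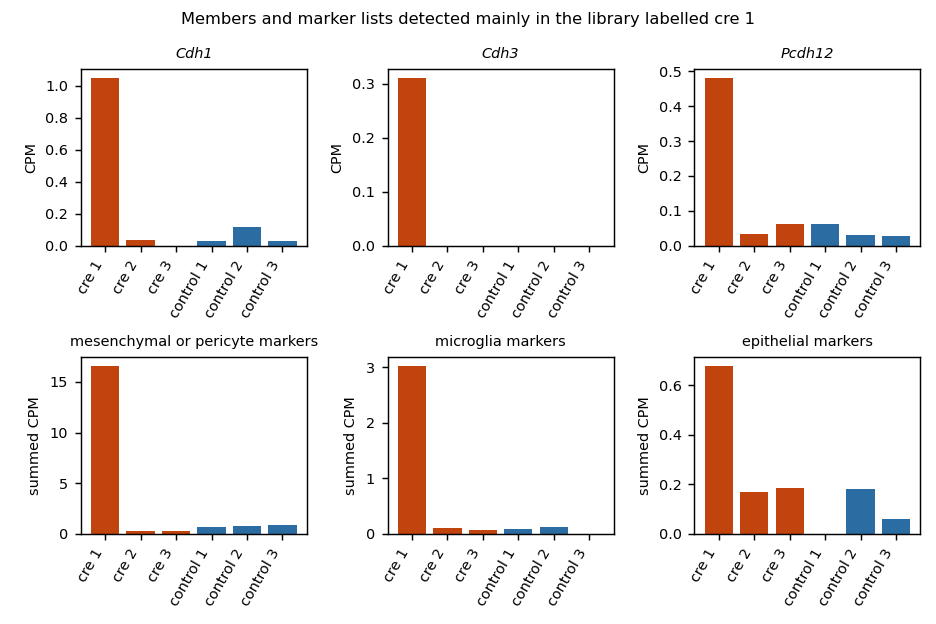
CPM of *Cdh1*, *Cdh3* and *Pcdh12* (upper row) and summed CPM of the mesenchymal or pericyte, microglia and epithelial marker lists (lower row) in each library, as bars from 0 with the cre libraries left of the control libraries. Each is highest in the library labelled cre 1, where the mesenchymal list sums to 16.6 CPM.

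Among genes for proteins that cadherins work with, *Jup* was the only one called. Of 17 catenin, nectin and junction genes, 16 were tested and 0 were called by the labels. At an unadjusted p under 0.05 by the labels stood 4 of them, where 5.00% of all genes did. In the 4 libraries 1, *Jup*, was called lower, where 0.247% of all genes were called lower. *Jup* encodes plakoglobin (gamma-catenin), which can take the place of beta-catenin at cadherin tails and links desmosomal cadherins. *Jup* had 12.4, 14.7 and 21.0 CPM in cre 1, 2 and 3, against 62.2, 44.3 and 19.4 CPM in control 1, 2 and 3. Control 3 was below cre 3 and lay with the cre libraries. The log2 fold change was -1.39 by the labels (SE 0.40, adjusted p = 0.824) and -1.98 in the 4 libraries (SE 0.18, adjusted p = 0.0159 by quasi-likelihood). By the labels the exact test called *Jup* (adjusted p = 0.0102), where 0.402% of all genes were called in either direction. The median of the 16 genes was -0.02 on the log2 scale by the labels.

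No gene was called among 9 of ADAM10, gamma-secretase and the membrane metalloproteases, which shed and cut cadherins (*Adam10* at 220 to 263 CPM, *Ncstn* at 142 to 171 CPM), among 6 tested of 9 transcription factors known to repress *Cdh1* or bind its E-boxes (*Zeb1* at 768 to 911 CPM, *Tcf4* at 470 to 538 CPM), or among 9 of the WAVE complex (*Nckap1* at 545 to 585 CPM, *Abi2* at 205 to 292 CPM), by the labels or in the 4 libraries with the quasi-likelihood test. At an unadjusted p under 0.05 by the labels stood 0, 0 and 1 of them in that order, where 5.00% of all genes did. DESeq2, the exact test and limma-voom called 0. Nor was any called among 13 tested of 20 other genes of the cadherin superfamily, such as the giant cadherin *Fat1* at 310 to 537 CPM and *Clstn1* at 249 to 297 CPM. Of these 13, 2 stood at an unadjusted p under 0.05 by the labels, beside 5.00% of all genes. The medians of these lists by the labels were -0.04, 0.06, 0.03 and 0.12 on the log2 scale in that order. Of the 48 clustered protocadherins tested, 0 were called by the labels (9 at an unadjusted p under 0.05, beside 5.00% of all genes). DESeq2 called 1 of them by the labels, beside 0.414% of all genes, and the exact test 2, beside 0.402%. In the 4 libraries 3 (*Pcdhb11*, *Pcdhga12* and *Pcdhb2*) were higher in cre, beside 0.212% of all genes called higher.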

How the data were processed

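Stranded mRNA libraries were sequenced on an Illumina NextSeq instrument, and the authors aligned reads to GRCm38.p5 with Subread and deposited whole-number counts per Ensembl gene, made with Rsubread and without normalization. Versions and the strand, multi-mapping and overlap settings are not given in the sources used here. The study's text names no test for these counts. All 6 columns matched a library by name, and 345 of 49671 genes had no symbol. edgeR 4.0.16 (R 4.3.3) was used with filterByExpr, TMM factors and the quasi-likelihood test on all genes, with Benjamini-Hochberg adjustment. The standard error is the absolute log2 fold change over the square root of F. Levels between genes were compared per kilobase of exon (GENCODE M21, GRCm38), whose release is later than that of the counts. Alternatives were DESeq2 1.42.0, limma-voom (limma 3.58.1), edgeR's exact test, other scalings and filters, a replicate block, single libraries left out and the 4 libraries numbered 1 and 2. The tests were tested on simulated data. Genes named are all members, and of each list up to 4 called genes or else the 2 most abundant, with *Tet3*, *Gfap* and cell type markers added. Members and lists were chosen with earlier results of these data known, and all 6 libraries entered the fit as labelled. The values of 1 marker list are not reported here.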

Additional observations from a re-analysis of the deposited data

How the results depend on the processing

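The count of members called was 0 by the labels and stayed 0 with limma-voom, other scalings, other filters and the replicate block. It was 2 with DESeq2 and 1 with the exact test. In the 4 libraries numbered 1 and 2, an alternative known from earlier results, it was 1, and with DESeq2, the exact test and limma-voom on these libraries, added after seeing the data, it was 1, 2 and 1. Single libraries left out gave 0 to 1. Members whose groups do not overlap numbered 3 by the labels, 4 with other scalings, where *Pcdh7* joined, and 9 in the 4 libraries. For single genes, log2 fold changes turned sign in the 4 libraries for *Cdh20* (0.21), *Cdh22* (-0.01), *Pcdh1* (-0.07), *Pcdh18* (-0.05) and *Pcdh20* (0.17, or 0.18 with DESeq2 and limma-voom). None of these was called. Leaving out single libraries turned the sign of genes close to zero, with ranges of -0.03 to 0.09 for *Cdh2*, -0.31 to 0.14 for *Cdh4*, -0.02 to 0.09 for *Cdh6*, -0.16 to 0.18 for *Cdh20*, -0.06 to 0.07 for *Cdh22*, -0.06 to 0.38 for *Cdh23*, -0.04 to 0.15 for *Cdh24*, -0.07 to 0.14 for *Pcdh1*, -0.01 to 0.31 for *Pcdh17*, -0.02 to 0.13 for *Pcdh18*, -0.01 to 0.16 for *Pcdh19*, -0.24 to 0.13 for *Pcdh20* and -0.49 to 2.61 for *Gfap*. The cause was not tested. Of 429 such values under the alternatives, for the tested members with *Jup*, *Tet3* and *Gfap*, 44 turned sign, 22 newly passed the threshold and 363 did neither. Those that newly passed belonged to *Cdh13* and *Cdh19* among the members, and to *Jup*, *Tet3* and *Gfap*. Same-numbered libraries did not deviate together (Pearson's r over 16916 genes -0.0892, 0.00804 and -0.0169, genes not being independent replicates), so the numbers were not taken as a pairing. With the replicate block, *Cdh13* had a log2 fold change of 0.58 and *Cdh19* of -0.45, neither called. Members under 1 CPM rest on few reads, and their differences could not be resolved at this depth.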
